A study of Triticum turgidum subsp. durum with 24 samples.

Results

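Endosperm of durum wheat at 15 days post anthesis (dpa) was compared with endosperm at 8 dpa across all genes. The comparison took the 3 libraries that the labels give as 15 dpa and the 3 given as 8 dpa, 6 of the 24 libraries of a time course from 6 to 30 dpa. Both groups were wild type (WT) plants of the variety Kronos, grown in controlled environment rooms, with the endosperm dissected from frozen grains, so genotype, variety and treatment were shared and developmental age was the difference. Each replicate came from a different plant and pooled the endosperms of a spike, 4 at 15 dpa and 6 at 8 dpa, and poly-A selected RNA was sequenced. Some plants gave spikes to more than 1 timepoint, and the number pooled goes with age, so age and pool size cannot be told apart here. Values are for 1 canonical transcript per gene of the Svevo durum wheat annotation. The tables hold 66559 transcripts, and the 44240 that reached 10 counts in 3 or more of the 24 libraries were tested. Total estimated counts were 64576814, 61486408 and 56180606 at 15 dpa, against 71616133, 60082585 and 68580119 at 8 dpa.

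Between these ages the cereal endosperm passes from the phase in which its cells divide and take shape to grain filling, when starch and storage protein accumulate. Starch is made in amyloplasts from ADP-glucose, which in cereal endosperm is produced mainly in the cytosol and imported by the Brittle1 (BT1) transporter. Starch synthases extend the glucan chains, branching enzymes add branch points, isoamylases trim them, and granule-bound starch synthase (GBSS) makes amylose. Durum wheat is tetraploid, and most genes have a homeolog in the A and in the B genome.

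The tissue was checked against 10 transcripts of starch synthesis that mark starchy endosperm, the copies of GBSS1, cAGPL, AGPS1, BT1.1 and ISA1. All 10 were present at both ages, with a lowest value in any library of 42.7 TPM (transcript abundance per length, scaled to a fixed library total) at 15 dpa and 24.1 TPM at 8 dpa. Their TPM summed to 4743, 3737 and 4005 at 15 dpa, against 1810, 2669 and 1452 at 8 dpa. GBSS2-B1, a GBSS form known from the pericarp and vegetative tissues, had 4.34, 5.49 and 5.04 TPM at 15 dpa, against 10.6, 12.4 and 7.13 TPM at 8 dpa. GBSS2-B1 was therefore low but not absent at either age, and whether carried-over pericarp has a part in any difference below was not tested. In bulk endosperm, fewer cells of a type and less RNA per cell cannot be told apart.

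Sequence matters here because the A and B copies of a gene are alike over most of their length, and kallisto divides the reads that copies share between them. The level of a single copy is then less certain than the sum of a pair. For qRT-PCR the study designed primers for GBSS1-A2 (amylose synthesis), BAM5.3-A1 (a beta-amylase) and BGC1-A1 (granule initiation) that are meant to amplify the named copy and not its partner. They are shown, 5′ to 3′, because they mark where copies described below were taken to differ, and their match to the transcripts was not checked here.
GBSS1-A2 forward: gtgctgacggtgagcccctactac
GBSS1-A2 reverse: gttgacgatgccggtgatgccc
BAM5.3-A1 forward: ctgcttacaacaccatactcaggaatgca
BAM5.3-A1 reverse: ccaccaactgattcaacagccgg
BGC1-A1 forward: tggagctcctagtcgaagtccaacta
BGC1-A1 reverse: tctggtattccattttgagaatgagagcgg

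A small number of transcripts came to dominate the RNA pool. In each library the 10 highest transcripts took 30.0%, 29.0% and 29.8% of TPM at 15 dpa, against 6.97%, 7.28% and 8.33% at 8 dpa. For the 100 most abundant the share was 58.0% ± 2.71 at 15 dpa and 24.2% ± 1.61 at 8 dpa (SD, n = 3 each). The groups did not overlap in either share. To reach 50% of TPM took 37, 55 and 45 transcripts at 15 dpa, against 559, 559 and 459 at 8 dpa. Transcripts at 10000 TPM or more numbered 16, 13 and 14 at 15 dpa, against 2, 2 and 3 at 8 dpa.

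**Figure D1:**
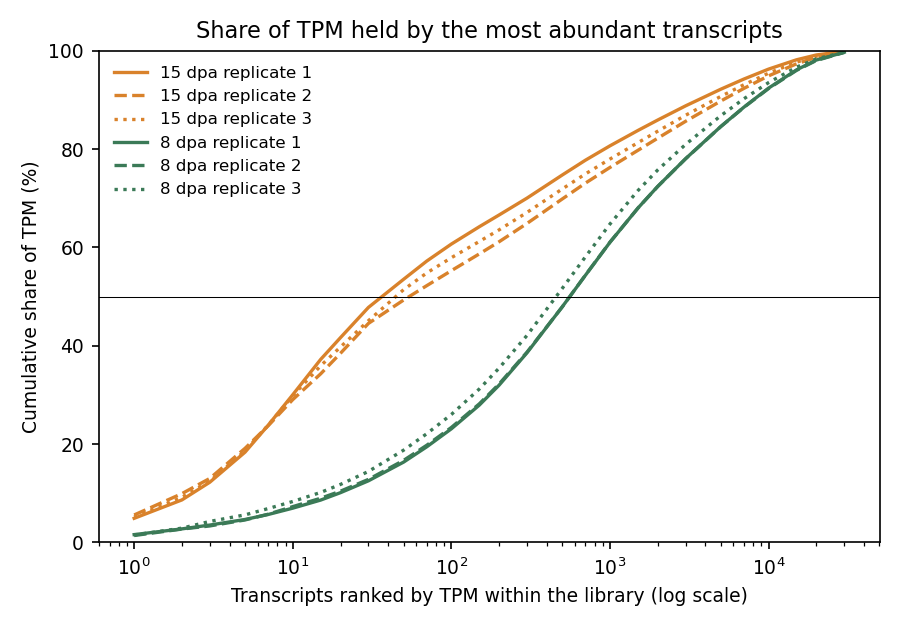
Cumulative share of TPM (%) against the rank of transcripts by TPM within each library (log scale), 1 line per library, 3 of 15 dpa and 3 of 8 dpa. The 15 dpa lines pass 50% at 37 to 55 transcripts and the 8 dpa lines at 459 to 559.

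The most abundant transcripts of each age behaved differently. The 10 with the highest mean TPM at 15 dpa, none of them on the starch list and none with a name in the files, held 29.4%, 29.0% and 28.9% of TPM at 15 dpa, against 0.577%, 1.93% and 0.802% at 8 dpa. All 10 rose, by log2 fold changes of 4.54 to 7.59, where 23.9% of all genes tested rose. They were read off these same libraries as the highest at 15 dpa, so that direction is in part a product of the choice. Of the 100 most abundant at 15 dpa 78 rose, 4 fell and 18 were not called, and of the 100 most abundant at 8 dpa 17 rose, 51 fell and 32 were not called.

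This concentration bears on every fold change. TPM and CPM (counts scaled to a common library total) divide a fixed total, so a few transcripts that gain a large share lower the values of the others. TMM scaling, which sets the bulk of genes level between libraries, gave factors of 0.788, 1.01 and 0.946 at 15 dpa, against 1.55, 1.57 and 1.58 at 8 dpa. The median log2 change of the genes tested was 0.02 after TMM scaling and -0.55 in TPM with 0.1 added. All log2 fold changes given here are 15 dpa over 8 dpa after TMM scaling, from edgeR's quasi-likelihood test in 1 model of the 24 libraries, with p-values adjusted by Benjamini and Hochberg over the 44240 genes. A gene was called, and is said to have risen or fallen, at an adjusted p of at most 0.05 and a change of more than 1.5-fold. At an unadjusted p of 0.05, 25372 genes passed.

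Rising and falling genes were near even in number, on a scale that sets the bulk of genes level. Which direction had more calls depended on the method, since with DESeq2 10525 rose and 10938 fell. Of 44240 genes tested, 20826 were called (47.1%), of which 10576 rose (23.9% of those tested) and 10250 fell (23.2%). With the limit set at a log2 fold change of 1.5 in either direction, 11261 were called (25.5%), of which 5572 rose (12.6%) and 5689 fell (12.9%). Scaled by library totals alone, 4477 genes rose and 19410 fell, so that 18.7% of the called genes rose, against 50.8% with TMM. All 4477 of these had also risen with TMM, and all 10250 that fell with TMM also fell. No gene was called in opposite directions on the scales, and the rest of the genes that rose with TMM were not called with library totals. Going from TMM to library totals moves all genes by nearly the same amount, a log2 of about -0.79. A gene above the upper limit could hardly pass the lower one by this shift, and falling genes move further down. The lack of opposite calls was thus set in advance and is no support for the calls.

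Large changes were common. A change of more than 16-fold was seen in 1467 genes that rose and 1642 that fell, and one of more than 1024-fold in 37 and 156. Of the 60 genes with a mean of at least 1000 CPM over the 6 libraries, 48 rose and 2 fell. In the class from 100 to 1000 CPM, 300 rose and 318 fell of 1004. The classes are set by the mean over these same 6 libraries, and a gene can reach the highest class through its 15 dpa values alone, so the rise of that class is in part a product of how it was formed.

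**Figure D2:**
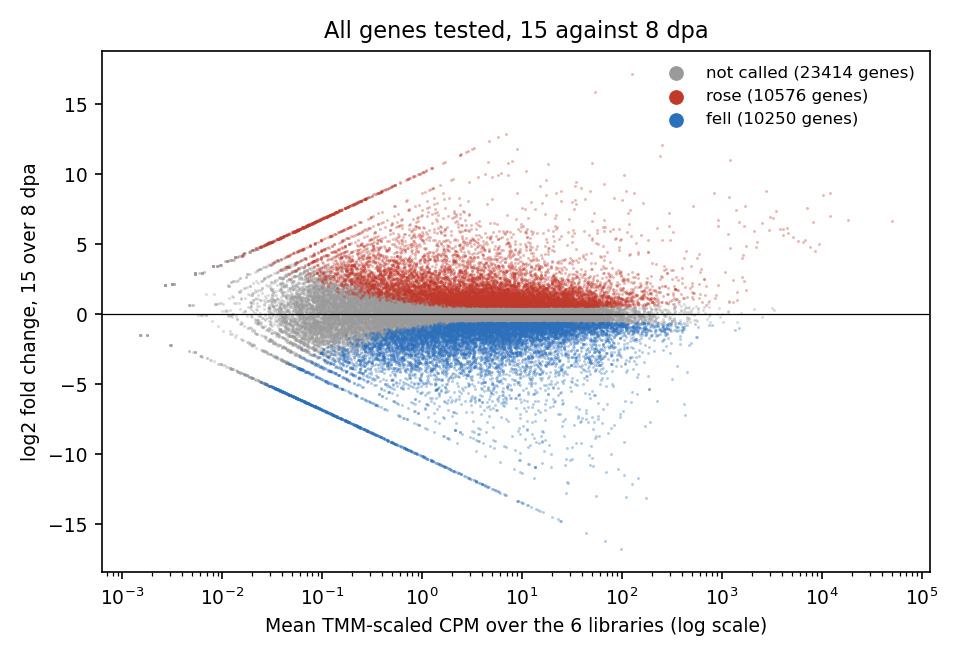
log2 fold change, 15 over 8 dpa after TMM scaling, against mean TMM-scaled CPM over the 6 libraries (log scale), 1 point per gene tested. The 10576 genes that rose and 10250 that fell lie on both sides of 0 at most levels, and above 1000 CPM 48 of 60 rose. Points on the diagonal lines at the edges are genes with 0 or few counts in 1 group, whose fitted values depend on the prior count.

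The groups stood apart in every pair of libraries. Over all genes tested, the median absolute log2 difference in CPM was 0.152 to 0.246 between replicates of an age and 0.506 to 0.596 between libraries of different ages. The 8 dpa library nearest to each of the 15 dpa libraries was replicate 2. Of the 59 starch-related genes that rose (below), 49 had their highest 8 dpa value in replicate 2, so these genes were closest to their 15 dpa level in that library. This held for 22 of the 43 starch-related genes not called and for 5 of the 15 that fell. The share over all genes tested is not given here. Without 8 dpa replicate 2, 10023 genes rose and 9631 fell, of which 58 and 14 were on the starch list.

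At a fixed limit of TPM, more transcripts were detected at the younger age. A mean of at least 1 TPM was reached by 24043 transcripts at 15 dpa and 27497 at 8 dpa. Of these, 1687 did so only at 15 dpa and 5141 only at 8 dpa. At 0 counts in all 3 libraries of 15 dpa were 239 genes with at least 1 TPM at 8 dpa, while 54 genes with at least 1 TPM at 15 dpa were at 0 counts in all 3 libraries of 8 dpa. At a mean of at least 10 TPM in the other group, these numbers were 80 and 4. None of these numbers is adjusted for the scale. In TPM with 0.1 added the median gene tested was at a log2 change of -0.55, and the TMM factors were lower at 15 dpa. A gene of the bulk is thus less readily detected at 15 dpa, and the part this has in the numbers was not tested.

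Large changes were also seen in genes that the files do not pair with names, of which 2 that rose and 2 that fell are given. TRITD3Bv1G222500 (chromosome 3B from 677362538 to 677363652) had 126, 99.4 and 182 TPM at 15 dpa, against 0 in each 8 dpa library. TRITD4Bv1G025700 (chromosome 4B from 71471777 to 71473182) had 58.4, 39.8 and 54.4 TPM at 15 dpa, against 0 in each 8 dpa library. With a floor of 3 counts over the 8 dpa group, these were at least 26092-fold and at least 10894-fold higher at 15 dpa. In the other direction, TRITD4Av1G199630 (chromosome 4A from 584959211 to 584962088) was at 0 in each 15 dpa library, against 69.2, 51.5 and 65.9 TPM at 8 dpa, at least 10894-fold lower. TRITD4Bv1G032030 (chromosome 4B from 90943097 to 90943552) was at 0 in each 15 dpa library, against 542, 205 and 202 TPM at 8 dpa, at least 4946-fold lower. In edgeR the adjusted p of these 4 genes was 4.81e-05, 9.36e-06, 3.5e-08 and 3.58e-05, in the order given. Coordinates are of the Svevo.v1 assembly.

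The study lists starch-related genes in 8 categories, found by orthology, of which 117 passed the filter and were tested, with BAM9-A1 alone left out as too low. Of the 117, 59 rose (50.4%, where 23.9% of all genes tested did), 15 fell (12.8%, where 23.2% did) and 43 were not called, and their median log2 fold change was 0.75, beside 0.02 over all genes. In TMM-scaled CPM the 3 libraries of 15 dpa were all above those of 8 dpa for 69 genes, where this held for 31.6% of all genes tested, and all below for 24, where it held for 32.1% (63.6% in either direction). With library totals, 36 rose, 35 fell and 46 were not called, where 4477 of all 44240 genes tested rose and 19410 fell. All 36 of these risers had risen with TMM and all 15 that fell with TMM fell again, as the shift of scale leads to. Another 23 genes that rose with TMM were no longer called. Leaving out each of the 24 libraries in turn kept the call of 59 of the 74 called genes, and exceptions are given here or beside the genes named below. Without 15 dpa replicate 3, 8 starch-related genes fell, where 15 fell with all libraries. Of the genes that fell, PHS2.2-B1 and BAM1.2-B1 had 0 and 1 counts in all at 15 dpa, so no fold is given for them. The calls of PHS2.2-B1, BAM1.2-B1 and BAM1.2-A1 were lost in 4, 3 and 14 of the 24 cases. AMY2-B1, an alpha-amylase that rose with 0.75, lost its call without 15 dpa replicate 3 (0.65) and with library totals (-0.0353). AMY3-B1, another alpha-amylase, rose with 0.85 and lost its call in 5 of the 24 cases and with library totals (0.0907). GWD1.2-B1, a dikinase, rose with 1.29 and lost its call without 8 dpa replicate 3 and with library totals (0.53).

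**Figure D3:**
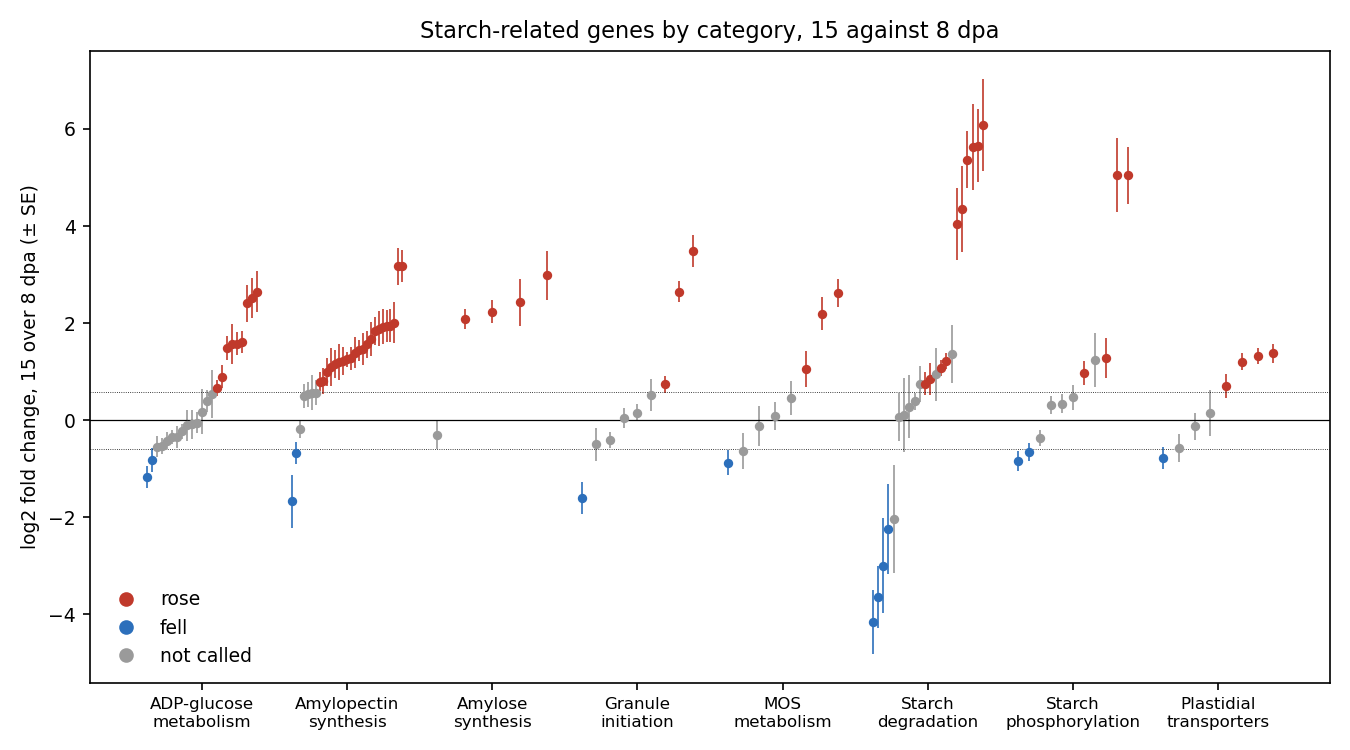
log2 fold change (± SE), 15 over 8 dpa after TMM scaling, of 115 starch-related genes by category, ordered within a category. Dotted lines mark 1.5-fold. In amylopectin and amylose synthesis most genes are above the upper line, and starch degradation holds both the largest rises and the largest falls. PHS2.2-B1 and BAM1.2-B1, with 3 counts or fewer at 15 dpa, are not drawn.

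ADP-glucose metabolism was led by the cytosolic AGPase genes, which form ADP-glucose from glucose 1-phosphate. AGPS1-A1, the cytosolic small subunit (chromosome 7A from 339999400 to 340007286), had 897, 711 and 668 TPM at 15 dpa, against 177, 293 and 142 at 8 dpa. AGPS1-B1 (chromosome 7B from 280072868 to 280079456) had 871, 715 and 701 TPM at 15 dpa, against 210, 339 and 174 at 8 dpa. The lowest 15 dpa library was above the highest 8 dpa library for both copies, and both rose, with log2 fold changes of 2.65 (SE 0.43, adjusted p = 4.1e-05) and 2.41 (SE 0.38, adjusted p = 2.95e-05). cAGPL-A1 and cAGPL-B1, the cytosolic large subunit, rose with log2 fold changes of 2.52 (SE 0.42) and 1.57 (SE 0.42). cAGPL-B1 was the more abundant copy, at 628 ± 59.8 TPM at 15 dpa and 355 ± 144 TPM at 8 dpa (SD, n = 3 each).

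The transporters that bring ADP-glucose and ATP into the plastid were not called or fell. BT1.1-A1, a copy of the ADP-glucose importer, had 375, 308 and 340 TPM at 15 dpa, against 387, 490 and 301 at 8 dpa. The groups overlapped, and BT1.1-A1 and BT1.1-B1 were not called with log2 fold changes of 0.54 (SE 0.49) and 0.18 (SE 0.46), and of -0.27 and -0.63 with library totals. NTT1-B1, a plastidial ATP carrier (chromosome 3B from 425060123 to 425063970), had 3.83, 5.34 and 4.32 TPM at 15 dpa, against 18.8, 17.1 and 13.3 at 8 dpa. NTT1-B1 fell with a log2 fold change of -1.17 (SE 0.23, adjusted p = 0.000261), and NTT2-B1 fell with one of -0.82 (SE 0.25).

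Among the other genes of this category, the plastidial AGPase large subunit pAGPL rose in both copies (log2 fold changes of 1.61 and 1.49). Of the plastidial small subunit, AGPS2-B1 rose with 0.66 and was at -0.12 with library totals, not called, while AGPS2-A1 was at -0.05, not called, and fell with library totals, by 0.84 on the log2 scale. Of the enzymes that interconvert hexose phosphates, the cytosolic phosphoglucose isomerase cPGI rose in both copies (0.89 for cPGI-A1, which was not called with library totals at 0.10, and 1.58 for cPGI-B1). The plastidial pPGI and the phosphoglucomutase PGM were not called in any copy, with log2 fold changes from -0.55 to -0.09, and all 4 copies fell with library totals, by 0.89 to 1.34 on the log2 scale. In the whole category 9 genes rose (39.1%, where 23.9% of all genes did), 2 fell (8.70%, where 23.2% did) and 12 were not called. With library totals 7 rose and 11 fell, where 4477 and 19410 of all 44240 genes tested did.

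In amylopectin synthesis 22 genes rose (75.9%, where 23.9% of all genes did), 2 fell (6.90%, where 23.2% did) and 5 were not called. The median log2 fold change of the category was 1.25. With library totals 12 rose and 3 fell, where 4477 and 19410 of all 44240 genes tested did. The branching enzyme SBE1.1 had the largest rise. SBE1.1-B1 (chromosome 7B from 706920175 to 706925374) had 105, 74.9 and 81.8 TPM at 15 dpa, against 16.3, 20.2 and 12.1 at 8 dpa, a log2 fold change of 3.18 (SE 0.33, adjusted p = 3.59e-07). All 15 dpa libraries were above all 8 dpa libraries, and SBE1.1-A1 rose by nearly the same amount (3.17, SE 0.38). The A copy of SBE1.3, a related branching enzyme, is annotated as a splice variant of SBE1.1-A1 and so has no value of its own.

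The most abundant gene of amylopectin synthesis was SBE2a-A1, another branching enzyme (chromosome 2A from 498801189 to 498812928), with 221, 227 and 198 TPM at 15 dpa, against 169, 204 and 111 at 8 dpa. In TPM the groups overlapped, and on the TMM scale SBE2a-A1 rose with a log2 fold change of 1.15 (SE 0.29, adjusted p = 0.00243), which with library totals was 0.35 and not called. SBE2b-A1, a branching enzyme form typical of cereal endosperm (chromosome 2A from 527773812 to 527795107), had 238, 184 and 174 TPM at 15 dpa, against 83.4, 112 and 55.1 at 8 dpa. It did not overlap between the ages and rose with 2.01 (SE 0.43, adjusted p = 0.000606). SBE2b-B1 had 134, 111 and 94.2 TPM at 15 dpa, against 89.8, 106 and 55.2 at 8 dpa, and rose with 1.19 (SE 0.37, adjusted p = 0.0115). Its groups overlapped in TPM, and its call was lost with library totals (0.38) and without 8 dpa replicate 3 (1.02) or 15 dpa replicate 1 (0.89).

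The starch synthases rose to different extents. SS1, which makes short chains, rose with log2 fold changes of 1.46 and 1.88 in the A and B copies, and SS3a, which makes long chains, with 1.95 and 1.67. SS2a-B1 rose with 1.09 and lost its call with library totals (0.28) and without 8 dpa replicate 1 (1.02), 8 dpa replicate 3 (0.99) or 15 dpa replicate 1 (0.89), while SS2a-A1 was at 0.56, or -0.24 with library totals, and not called. SS2c-A1, a minor form, had 0.542, 1.13 and 0.721 TPM at 15 dpa, against 2.49, 2.03 and 1.599 at 8 dpa, and fell with a log2 fold change of -0.68 (SE 0.23, adjusted p = 0.0163). Its call was lost without 8 dpa replicate 1 (-0.55), 15 dpa replicate 1 (-0.56) or 15 dpa replicate 3 (-0.61).

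The debranching enzyme ISA1, an isoamylase that trims branches during synthesis, rose in both copies with 1.22 (SE 0.30) and 1.27 (SE 0.24), and with library totals neither copy was called (0.41 and 0.47). ISA2, its partner without activity of its own, was not called at 0.54 and 0.56, or -0.27 and -0.24 with library totals. ESV1-B1 and LESV-A1, members of a pair of protein families that bind starch granules, rose with 1.57 and 1.84. ESV1-A1 was not called at 0.50 (SE 0.24), or -0.30 with library totals. LESV-B1 rose with 0.81, was at -0.0022 with library totals, and lost its call without 8 dpa replicate 1 (0.73) or 15 dpa replicate 1 (0.60).

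Amylose synthesis had 4 genes that rose of 5 (80%, where 23.9% of all genes did with TMM), on both scales. Of all 44240 genes tested, 4477 rose and 19410 fell with library totals. GBSS1-A2 (chromosome 4A from 683742118 to 683744921) had 650, 428 and 559 TPM at 15 dpa, against 144, 236 and 132 at 8 dpa. GBSS1-A1 (chromosome 7A from 32920743 to 32923776) had 533, 366 and 503 TPM at 15 dpa, against 90.1, 134 and 74.6 at 8 dpa. Neither copy overlapped between the ages, and they rose with log2 fold changes of 2.43 (SE 0.48, adjusted p = 0.000303) and 2.98 (SE 0.51, adjusted p = 6.88e-05). PTST1, known from Arabidopsis leaves for bringing GBSS to the granule, rose in both copies (2.08 and 2.23). PTST1-A1 had 15.4 ± 1.405 TPM at 15 dpa against 6.02 ± 1.36 TPM at 8 dpa (SD, n = 3 each). From its low level the study held a large part of PTST1 in making durum amylose to be unlikely. GBSS2-B1 was not called on the TMM scale at -0.30 (SE 0.29) and fell with library totals, by 1.09 on the log2 scale.

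**Figure D4:**
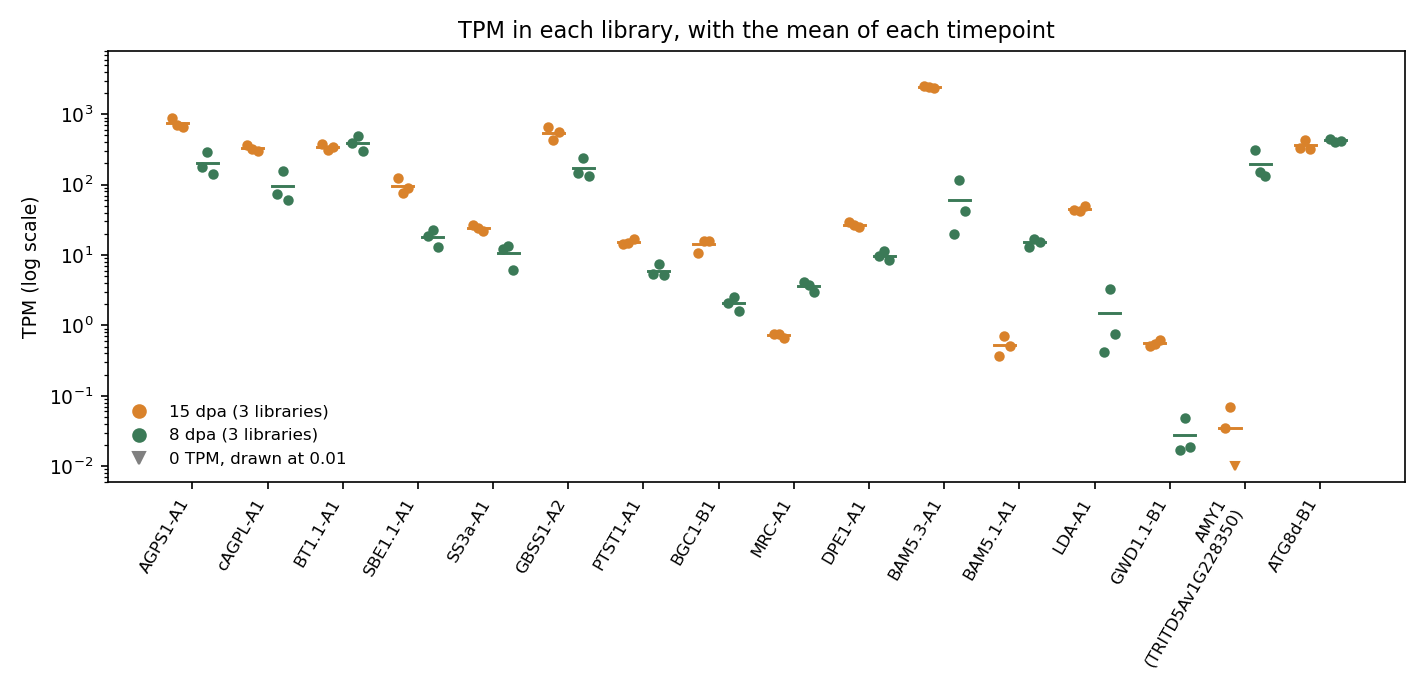
TPM (log scale) in each library of 16 named genes, with the 3 libraries of 15 dpa left of the 3 of 8 dpa for each gene and a line at the mean of each age (0 TPM is drawn as a triangle at 0.01). BAM5.3-A1 is near 2400 TPM in all 15 dpa libraries and between 20.2 and 117 TPM at 8 dpa, and the AMY1 gene on chromosome 5A is below 0.1 TPM at 15 dpa and above 130 TPM at 8 dpa.

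Of the 9 granule initiation genes, 3 rose (33.3%, where 23.9% of all genes did), 1 fell (11.1%, where 23.2% did), with 5 not called. With library totals 2 rose and 5 fell, where 4477 and 19410 of all 44240 genes tested did. BGC1, also called FLOURY ENDOSPERM6, acts in the initiation and growth of granules. BGC1-B1, which is not placed on a chromosome, had 10.6, 15.9 and 15.9 TPM at 15 dpa, against 2.08, 2.52 and 1.59 at 8 dpa. BGC1-A1 (chromosome 4A from 583267850 to 583274766) had 6.01, 8.75 and 9.49 TPM at 15 dpa, against 2.53, 2.08 and 1.68 at 8 dpa. Both stood clear of the 8 dpa libraries in every replicate, and they rose with 3.48 (SE 0.33, adjusted p = 1.37e-07) and 2.65 (SE 0.21, adjusted p = 2.95e-08).

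MRC-A1 moved the other way. MRC is known in wheat for holding back the initiation of B-type granules early in grain development. MRC-A1 (chromosome 6A from 202466118 to 202471338) had 0.760, 0.745 and 0.653 TPM at 15 dpa, against 4.16, 3.70 and 2.96 at 8 dpa. The highest 15 dpa library was below the lowest 8 dpa library, and MRC-A1 fell with a log2 fold change of -1.60 (SE 0.33, adjusted p = 0.000386). SS4, a starch synthase of granule initiation, was low and not called in either copy. SS4-A1 had 0.898 ± 0.0249 TPM at 15 dpa and 1.04 ± 0.243 TPM at 8 dpa (SD, n = 3 each), a log2 fold change of 0.52. SS4-B1 had 0.376 ± 0.134 TPM at 15 dpa and 0.851 ± 0.220 TPM at 8 dpa (SD, n = 3 each), without overlap, and was at -0.50, and with library totals it fell, by 1.26 on the log2 scale. Of MFP1, known from Arabidopsis to place initiation sites on thylakoids, MFP1.2-A1 rose with 0.74, which was -0.05 and not called with library totals. MFP1.1-A1 was at 0.04 and MFP1.2-B1 at 0.15, neither called, and with library totals they fell, by 0.76 and 0.64 on the log2 scale.

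In maltooligosaccharide (MOS) metabolism 3 genes rose (33.3%, where 23.9% of all genes did), 2 fell (22.2%, where 23.2% did) and 4 were not called. With library totals 2 rose and 3 fell, where 4477 and 19410 of all 44240 genes tested did. DPE1, the plastidial disproportionating enzyme that recycles short glucans, rose in both copies. DPE1-B1 (chromosome 2B from 158477647 to 158482240) had 26.6, 25.5 and 25.8 TPM at 15 dpa, against 6.74, 8.88 and 5.50 at 8 dpa, a log2 fold change of 2.61 (SE 0.29, adjusted p = 7.01e-07). DPE2-B1, the cytosolic form (chromosome 2B from 110376655 to 110384306), had 1.3002, 2.34 and 1.52 TPM at 15 dpa, against 6.20, 4.86 and 4.11 at 8 dpa, and fell with -0.88 (SE 0.26, adjusted p = 0.00736). So the plastidial form was higher and the cytosolic B copy lower at 15 dpa, with no overlap in either.

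The plastidial phosphorylase PHS1 was the most abundant gene of this category. PHS1-B1 (chromosome 5B from 574237802 to 574244463) had 98.5, 76.2 and 60.5 TPM at 15 dpa, against 106, 119 and 65.2 at 8 dpa, and was not called (0.46, SE 0.35, or -0.36 with library totals). PHS1-A1 rose with 1.06 (SE 0.37) on the TMM scale but was at 0.24 and not called with library totals. Its call was also lost without 8 dpa replicate 3 (0.89) or without 15 dpa replicate 1 (0.73).

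Starch degradation held the widest range. The category summed to 5135, 4736 and 4617 TPM at 15 dpa, against 85.1, 331 and 144 at 8 dpa, and nearly all of the 15 dpa sum was the beta-amylase BAM5.3, the form stored in cereal grain and used at germination. BAM5.3-A1 (chromosome 5A from 666168210 to 666171829) had 2499, 2451 and 2333 TPM at 15 dpa, against 20.2, 117 and 42.4 at 8 dpa. BAM5.3-B1 (chromosome 4B from 671239476 to 671243631) had 2539, 2184 and 2170 TPM at 15 dpa, against 20.8, 156 and 56.1 at 8 dpa. The 15 dpa libraries were close to one another, while the 8 dpa libraries spread widely with replicate 2 the highest. The log2 fold changes were 6.08 (SE 0.94, adjusted p = 2.48e-05) and 5.63 (SE 0.89, adjusted p = 3.17e-05), and without 8 dpa replicate 2 they were 6.91 and 6.53.

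BAM5.1 fell as BAM5.3 rose. BAM5.1-A1 (chromosome 2A from 199465150 to 199472906) had 0.373, 0.715 and 0.507 TPM at 15 dpa, against 12.8, 16.99 and 15.4 at 8 dpa, a log2 fold change of -4.16 (SE 0.66, adjusted p = 2.93e-05). Its homeolog BAM5.1-B1 fell with -3.65 (SE 0.64). The limit dextrinase LDA, a debranching enzyme, rose in both copies. LDA-A1 (chromosome 7A from 82974613 to 82984122) had 43.1, 42.6 and 49.0 TPM at 15 dpa, against 0.421, 3.32 and 0.745 at 8 dpa, and rose with 5.66 (SE 0.75, adjusted p = 4.2e-06), or 6.89 without 8 dpa replicate 2. LDA-B1 rose with 5.37 (SE 0.58), or 6.17 without that library.

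The other beta-amylases were low. BAM10 rose by 1.22 and 1.07 in its A and B copies, to means of 11.3 and 10.1 TPM at 15 dpa against 7.90 and 7.87 TPM at 8 dpa, and with library totals neither copy was called. BAM1.1-A1 and BAM1.1-B1 rose with 4.03 and 4.36 but stayed under 1 TPM at both ages. BAM5.2-A1, also under 1 TPM, had 12, 2 and 0 counts at 15 dpa, against 75, 68 and 81 at 8 dpa, and fell (adjusted p = 0.0168). It lost its call without 15 dpa replicate 2 (-2.59) or 15 dpa replicate 3 (-2.42), and was at -5.26 without 15 dpa replicate 1. Of the 23 degradation genes tested, 10 rose (43.5%, where 23.9% of all genes did), 5 fell (21.7%, where 23.2% did), with 8 not called. With library totals 6 rose and 6 fell, where 4477 and 19410 of all 44240 genes tested did.

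The secreted alpha-amylase AMY1 is listed apart, with 15 genes. Most were hardly detected, and 6 were tested. On chromosome 5A, TRITD5Av1G228350 (from 602535685 to 602537115) had 0.0349, 0.0690 and 0 TPM at 15 dpa, against 312, 150 and 135 at 8 dpa. It had 14 counts in all at 15 dpa and fell with a log2 fold change of -11.72 (SE 1.61, adjusted p = 3.08e-05), or -12.49 without 15 dpa replicate 2. Its counterpart on chromosome 5B, TRITD5Bv1G227200 (from 641873227 to 641874719), was at 0 in each 15 dpa library, against 139, 83.7 and 56.6 TPM at 8 dpa, at least 7507-fold lower (adjusted p = 1.18e-05). The 15 AMY1 genes together came to 0.120, 0.491 and 0.383 TPM at 15 dpa, against 452, 235 and 192 TPM at 8 dpa. Another 3 AMY1 genes were not called, and TRITD6Av1G194540 rose on 6, 12 and 0 counts at 15 dpa against 0 at 8 dpa, a call that was lost with library totals and when any 8 dpa library, 15 dpa replicate 1 or 2, or 13 dpa replicate 1 was left out.

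Reversible starch phosphorylation is the process by which dikinases and phosphatases mark starch for breakdown. This category had 4 genes that rose (36.4%, where 23.9% of all genes did), 2 that fell (18.2%, where 23.2% did) and 5 not called. With library totals 2 of its genes rose and 3 fell, where 4477 and 19410 of all 44240 genes tested did. Its genes summed to 22.6 ± 2.76 TPM at 15 dpa and 36.6 ± 3.46 TPM at 8 dpa (SD, n = 3 each), on a scale where the median gene tested was at -0.55, and the sum was not computed after TMM scaling. Its most abundant gene, PWD-A1, had 6.78, 8.44 and 7.09 TPM at 15 dpa, against 10.7, 10.5 and 8.09 at 8 dpa, and was not called (0.31, SE 0.19, or -0.48 with library totals). The phosphatase SEX4-B1 (chromosome 4B from 655041149 to 655045946) had 1.68, 1.98 and 1.81 TPM at 15 dpa, against 6.42, 5.205 and 4.59 at 8 dpa, and fell with -0.85 (SE 0.21, adjusted p = 0.00175). LSF2-B1 fell with -0.66 and was over the fold limit no longer without 8 dpa replicate 3 (-0.55) or 15 dpa replicate 3 (-0.47). The genes that rose were all under 1 TPM at both ages. Among them the glucan, water dikinase copies GWD1.1-A1 and GWD1.1-B1 had log2 fold changes of 5.05 each, and GWD1.1-A1, with 17 counts in all at 8 dpa, was at 7.27 without 8 dpa replicate 1.

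Of the 8 plastidial transporter genes 4 rose (50%, where 23.9% of all genes did), 1 fell (12.5%, where 23.2% did), with 3 not called. The most abundant was the glucose transporter pGlcT-B1 (chromosome 3B from 26563541 to 26568630), with 51.2, 63.3 and 69.5 TPM at 15 dpa, against 42.3, 47.5 and 30.4 at 8 dpa, and it rose with 1.32 (SE 0.17, adjusted p = 2.63e-06), which with library totals was 0.54 and not called. The maltose exporter MEX1-A1 (chromosome 2A from 682940804 to 682944805) had 4.81, 5.02 and 6.20 TPM at 15 dpa, against 3.57, 3.56 and 3.00 at 8 dpa, and rose with 1.38 (SE 0.20, adjusted p = 1.27e-05). These did not overlap between the ages. MEX1-B1 rose with 0.71, was at -0.08 with library totals, and lost its call without 8 dpa replicate 1 (0.71), 8 dpa replicate 3 (0.58) or 15 dpa replicate 1 (0.56). GPT1-B1, a glucose 6-phosphate carrier (chromosome 7B from 287862932 to 287866021), had 3.45, 4.56 and 2.74 TPM at 15 dpa, against 11.9, 9.34 and 8.81 at 8 dpa, and fell with -0.78 (SE 0.23, adjusted p = 0.00814). Its call was lost without 15 dpa replicate 3 (-0.60). With library totals 1 transporter gene rose and 3 fell, where 4477 and 19410 of all 44240 genes tested did.

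ATG8d-B1, which the study used as the reference in qRT-PCR, was close to level in TPM. It had 328, 434 and 324 TPM at 15 dpa, against 452, 404 and 417 at 8 dpa, and the groups overlapped. On the TMM scale it was just over the fold limit, with a log2 fold change of 0.61 (SE 0.12, adjusted p = 0.000349). With library totals it was at -0.16 and not called, and with TMM its call was lost without 8 dpa replicate 2 (0.57), 13 dpa replicate 1 (0.57) or 15 dpa replicate 2 (0.54).

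Homeologous copies were compared on the starch list alone. Of 56 pairs on the starch list 55 had both copies tested, and in 38 of these the copies had the same call, with 24 pairs in which both rose, 2 in which both fell and 12 in which neither was called. In 16 pairs only 1 copy was called, and the difference between the copies was not tested. The median absolute difference between the log2 fold changes of a pair was 0.42, and 6 pairs differed by more than 1. SS2b was the only pair with opposite calls. SS2b-A1 had 0.346, 0.451 and 0.474 TPM at 15 dpa, against 0.298, 0.430 and 0.308 at 8 dpa, and SS2b-B1 had 0.00771, 0.198 and 0.0869 TPM at 15 dpa, against 0.530, 0.562 and 0.319 at 8 dpa. Both were under 1 TPM, and the rise of SS2b-A1 was not called with library totals. The log2 fold change of SS2b-B1, -1.67, was -2.61 without 15 dpa replicate 2.

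**Figure D5:**
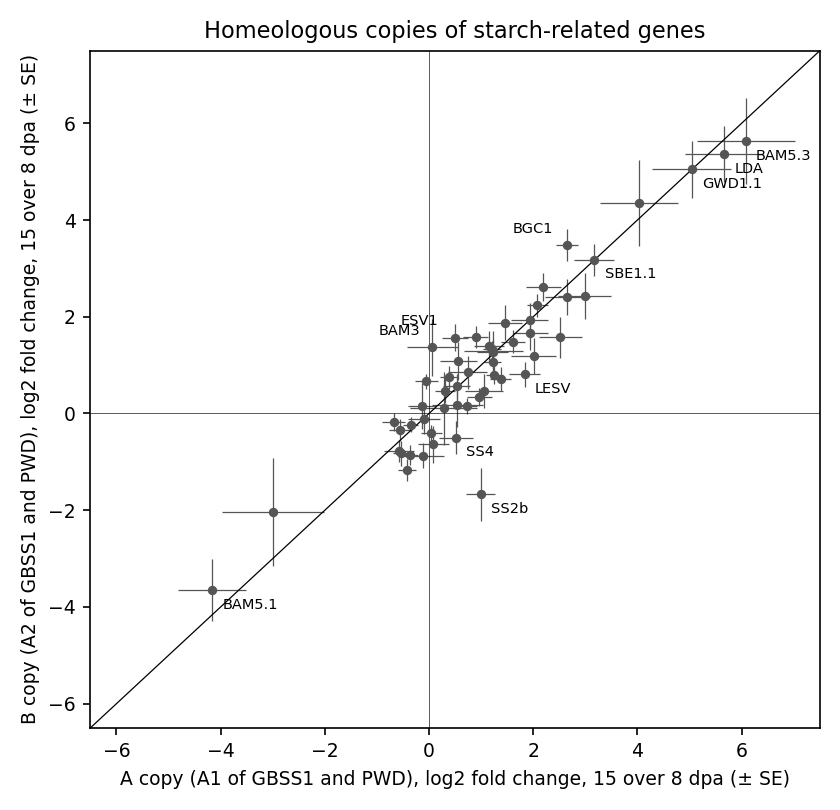
log2 fold change (± SE), 15 over 8 dpa after TMM scaling, of the B copy (A2 of GBSS1 and PWD) against the A copy, for 54 pairs of starch-related genes. Most pairs lie near the line of equal change, and SS2b, with a rise of the A copy and a fall of the B copy, lies farthest from it. BAM1.2, with 1 count of its B copy at 15 dpa, is not drawn.

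With the counts of both copies summed, which avoids the division of shared reads, the largest log2 fold changes were 5.84 for BAM5.3, 5.54 for LDA, 5.06 for GWD1.1, 4.22 for BAM1.1, 3.17 for SBE1.1 and 3.16 for BGC1. GBSS1 was at 2.66, AGPS1 at 2.52 and DPE1 at 2.38. In the other direction BAM5.1 was at -3.95, BAM5.2 at -2.75, BAM1.2 at -2.53 and NTT1 at -0.76. All of these were called.

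The timepoints between 8 and 15 dpa show when the change took place. The 10 and 13 dpa libraries are not in the contrast that chose the genes, but they entered its filter, scaling and estimate of spread. The start and end of the scale are the 8 and 15 dpa means that the calls rest on. Of the change in log2(CPM + 0.1) between 8 and 15 dpa, the median gene that rose had reached 43.3% at 10 dpa and 83.3% at 13 dpa, and the median gene that fell 38.9% and 80.4%. The middle of the change had been passed by 4106 of the rising genes at 10 dpa, by a further 5660 at 13 dpa, and by the remaining 810 at 15 dpa. For the falling genes the numbers were 3206, 6204 and 840. A mean that moved in the same direction at every step from 8 over 10 and 13 to 15 dpa was found for 70.2% of the rising and 72.5% of the falling genes.

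Values for the starch-related genes ranged widely. AGPS1-A1 and AGPS1-B1 had reached 74.1% and 75.2% of their rise at 10 dpa, and BAM5.3-A1 and LDA-A1 67.5% and 68.4%. BGC1-A1 and BGC1-B1 were at 30.9% and 40.9%, and SBE1.1-A1 and SBE1.1-B1 at 39.5% and 46.9%. MRC-A1 had made 9.59% of its fall at 10 dpa and 70.5% at 13 dpa. The AMY1 genes on 5A and 5B had made 11.5% and 15.9% of their fall at 10 dpa and 66.8% and 76.0% at 13 dpa. Both genes ended with few or no counts, so the 0.1 added to CPM sets how low that end lies. In mean TPM both had lost more than they kept by 10 dpa, and both were lower again at 13 dpa. All of these percentages are ratios of means of 3 libraries with no test between genes.

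Contrasts in libraries of neither age were set beside this one. Between 18 and 10 dpa 14313 genes were called (32.4%), of which 6764 rose (15.3% of those tested) and 7549 fell (17.1%). Of these risers 5440 had also risen between 15 and 8 dpa, 80.4% of the risers from 18 and 10 dpa and 51.4% of those from 15 and 8 dpa, and 13 had fallen. Of the genes that fell 6228 were shared, 82.5% and 60.8% of the lists, and 18 had risen. Between 13 and 6 dpa 22007 genes were called (49.7%), of which 11492 rose (26% of those tested) and 10515 fell (23.8%), with 8386 risers shared (73.0% of the risers from 13 and 6 dpa and 79.3% of those from 15 and 8 dpa) and 7712 shared among those that fell (73.3% and 75.2%). These contrasts use no library of 15 or 8 dpa, but all 3 share the estimate of spread of 1 model, and some of the plants may be shared.

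The change was spread evenly over the genome by number of genes. Over the 14 chromosomes 21.5% to 25.4% of the genes tested rose and 21.2% to 24.8% fell. In the A genome 24.1% rose and 22.9% fell, and in the B genome 23.6% rose and 23.6% fell. By level, the first 10 Mb of chromosome 1A summed to 77336 TPM on average at 15 dpa, against 12956 TPM at 8 dpa, with 28 genes rising and 11 falling of 82 tested. Those of chromosome 1B summed to 20999 TPM at 15 dpa, against 2268 TPM at 8 dpa, with 13 rising and 8 falling of 66. A few transcripts made up these sums, since 5 held 83.6% of the 15 dpa sum on 1A and 98.5% of that on 1B. Genes that rose had a median coding length of 1104 bases, those that fell 1215 and those not called 1173.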

How the data were processed

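Poly-A RNA of dissected endosperm was sequenced as paired reads. The authors quantified them with kallisto against Svevo v1, canonical transcripts only (version 0.46.1 in the submitters' processing notes, default settings). They deposited estimated counts, with no scaling between libraries, and TPM values from the same runs, in which each library has the same total after division by effective transcript length. The groups are those of the labels.

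Expected counts were rounded to whole numbers and tested in R 4.3.3 with edgeR 4.0.16 (TMM, quasi-likelihood F test, age as a factor, 24 libraries, genes reaching 10 counts in 3 or more of them). A call needed an FDR of at most 0.05 and an absolute log2 fold change over 0.585. The methods of the study give DESeq2 and 1.5. TPM were described without a test. No column of the tables was left unmapped. Positions came from RefSeq's table of assembly Svevo.v1, in which 63993 of the 66559 IDs have a chromosome. As the files and this table hold no product names, lists by product were not used.

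The alternatives were library totals alone, DESeq2 1.42.0, DESeq2's size factors used with edgeR, scaling without the 100 most abundant transcripts, other filters and fold limits, only the 6 libraries, replicate number in the model, limma 3.58.1 on log2(TPM + 0.1) or log2(TPM + 1), summed copies, other TPM limits and windows, and each library left out. The tests were tried on simulated data with known changes. Plots used matplotlib 3.10.9 in Python 3.11.15.

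Values in every library were given, by rule, for the genes of the study's qRT-PCR (and AGPS1, SBE2b, GBSS1, BAM5.3 and BGC1 homeologs) and, per category, for the most abundant gene and for the called genes with the largest rise and fall among those with at least 1 TPM at 1 of the ages. Genes named beside them are on the study's starch list. Of unnamed genes, 2 that rose and 2 that fell were taken, those with the largest fold at a mean of at least 10 TPM and no overlap. The comparison, the lists and these rules were chosen with earlier results of these data known. Intervals of counting error are not given. The p-values rest on the spread between replicates of an age, estimated over all ages of the series and not from the compared ages alone. A group at 0 was set at a floor of 3 counts over its libraries.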

Additional observations from a re-analysis of the deposited data

How the results depend on the processing

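The scale decided the balance of calls. No gene called in an alternative had the opposite call to that with TMM, but this was largely set in advance. Library totals and TPM move most genes alike, by less than the distance between the limits for a rise and a fall. The other alternatives use the same counts or most of them. Against 20826 genes called, 10576 rising and 10250 falling, library totals gave 4477 rising and 19410 falling, limma on log2(TPM + 0.1) 4739 and 19247, and limma on log2(TPM + 1) 3267 rising. On the starch list, with 74 called, 59 rising and 15 falling, these gave 36 and 35, 36 and 33, and 33 and 25. At an absolute log2 fold change over 1.5, 11261 genes were called, 5572 rising and 5689 falling, and on the starch list 40, 32 and 8. With at least 10 CPM in 3 libraries 17816 genes were tested and 9745 called, 4800 rising and 4945 falling, with 8 falling on the starch list, which follows from the smaller number tested. DESeq2 called 21463 genes, 20284 of them shared. With each library left out in turn there were 18460 to 21162 calls, 9411 to 10719 rising and 8911 to 10558 falling, and on the starch list 65 to 75 calls, 54 to 60 rising and 8 to 15 falling, with the 8 without 15 dpa replicate 3. A limit of 5 TPM left 11374 transcripts expressed at 15 dpa and 15120 at 8 dpa. The share of genes that fell in the first 10 Mb of 1A, 13.4%, was 6.67% in 5 Mb and 24.6% in 20 Mb, and on 1B it was 12.1% in 10 Mb and 7.89% in 5 Mb.

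Among listed genes called on at least 1 of the scales compared, the log2 fold change turned negative with library totals for AGPS2-B1 (-0.12), LESV-B1 (-0.0022), MFP1.1-A1 (-0.76), MFP1.2-A1 (-0.0544), MFP1.2-B1 (-0.64), AMY2-B1 (-0.0353), MEX1-B1 (-0.0846) and ATG8d-B1 (-0.16). With limma on log2(TPM + 0.1) it did for AGPS2-B1 (-0.0382), MFP1.1-A1 (-0.65) and ATG8d-B1 (-0.24), and on log2(TPM + 1) for AGPS2-B1 (-0.0371), MEX1-B1 (-0.0016) and ATG8d-B1 (-0.24). With the copies summed SS2b was at 0.0395, where its B copy alone had fallen. Many genes called on neither scale also changed sign with library totals, such as BT1.1-A1 (0.54 and -0.27).

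The replicate numbers are not known to pair plants across the ages. The deviations of same-numbered libraries correlated with 0.108, -0.00604 and 0.115 for numbers 1, 2 and 3, and replicate 2 of 15 dpa correlated better with replicate 1 of 8 dpa (0.0477) than with its own number, so the numbers were not taken as pairs. With a replicate block in the model 20835 genes were called, 10536 rising and 10299 falling, and with only the 6 libraries and a replicate block 20343, 9627 and 10716. On the starch list the block in the full model gave 73 calls, and BAM1.2-A1 alone changed its call.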

Other observations

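The study sorted differentially expressed genes of the whole time course into clusters by their TPM profile, and the lists of 7 clusters are held in full here. The study chose these lists on the same libraries, so their direction is no independent evidence. Of cluster C2, 741 of 809 genes rose and 0 fell between 15 and 8 dpa, and of C3 571 of 784 rose and 0 fell. C1 had 233 of 403 rising and C4 41 of 196, with 0 falling in either. Of C5, 655 of 729 genes fell, of C7 279 of 436, with 1 rising, and of C8 260 of 445. The share that rose in C4, 20.9%, was below the 23.9% of all genes tested, unlike that of C1, C2 and C3.

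At the start of chromosome 5B, the first 10 Mb summed to 15797 TPM on average at 15 dpa, against 734 TPM at 8 dpa, and a transcript alone held 98.8% of the 15 dpa sum. On 5A the first 10 Mb summed to 7901 TPM at 15 dpa, against 800 TPM at 8 dpa, with 96.7% in a single transcript. Of the 100 transcripts most abundant at 15 dpa, 14 lay on 1A, 14 were not placed on a chromosome, and each of the other chromosomes held 3 to 8. Of the 44240 genes tested, 2779 lay on 1A and 1036 were not placed.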
